A study of Mus musculus with 19 samples.

Results

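Genes of the splicing machinery were compared between HSALR and wild-type mouse muscle. They were taken by name: every gene whose symbol begins with Hnrnp or Snrp, or with Srsf, Sf3a, Sf3b or Prpf and a number, and that has at least 1 probe set carrying this symbol alone. This gave 59 genes of the 18193 with such a probe set: 19 hnRNP genes, 10 SR genes, 9 SF3a and SF3b genes, 9 Snrp genes and 12 Prpf genes. Each gene was read from its brightest probe set, a group of short probes that report 1 transcript, by the mean over all 19 samples. No measured difference between the groups entered this choice of probe set, but the gene families were chosen with earlier results of these data known.

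The tissue was EDL, the extensor digitorum longus, which lies in the lower leg and consists mainly of fast fibres. The 10 HSALR samples came from transgenic FVB mice of line 20 b aged 19 weeks, and the 9 wild-type samples from FVB mice of the same age without the transgene. HSALR stands for a human skeletal actin gene with a long CTG repeat, which is transcribed in skeletal muscle under the actin gene's own promoter, so the model is 1 transgenic line with the repeat RNA in muscle fibres. An Affymetrix array was run for each sample, so the precision is limited by having 19 arrays. The labels number the samples without saying that each is a separate animal, so the p-values measure the spread between these samples.

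Splicing removes introns from nascent transcripts. The spliceosome that does this is built from small nuclear RNAs, most of them held in a ring of Sm proteins (many encoded by Snrp genes). It also holds the SF3a and SF3b complexes that recognise the branch site and the Prpf proteins that join and remodel the machine. SR proteins bind exons and mostly favour their inclusion, while hnRNP proteins coat the transcript and often oppose it, so the balance of both kinds shapes which exons are used. In HSALR muscle the repeat RNA is known to capture MBNL proteins, another kind of splicing regulator, and many muscle exons are spliced differently as a consequence.

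The arrays differed in brightness, and this touches every value below. The median log2 signal of an array ran between 7.30 and 7.96 in HSALR muscle, against 7.56 to 7.95 in wild type, so results are given both as deposited and after quantile normalization, which gives each array the same distribution of signals. HSALR samples 9 and 10 stood apart. They resembled each other more than any of the other samples resembled its nearest neighbour. The Spearman correlation over the 22519 probe sets bright enough to test was 0.978, against 0.953 to 0.969 for the others. Their summed signal of 8 macrophage and monocyte markers was 15975 and 18205, where HSALR samples 1 to 8 had 3081 to 8248 and wild-type samples 3456 to 6099, and that of 6 fibroblast markers was 45157 and 46414, against 13120 to 28928 in HSALR samples 1 to 8 and 15167 to 24528 in wild type. The 7 muscle fibre markers, led by Acta1 and Ckm, were present in both groups, with summed signals of 82122 to 97457 in HSALR and 87249 to 101249 in wild-type muscle. Some markers changed between the groups in both scalings. As deposited the macrophage marker Cd68 rose by a log2 fold of 1.00, the fibroblast marker Pdgfra by 0.74 and the fat cell marker Adipoq by 1.58 (limma adjusted p = 0.0133, 0.0276 and 0.0237), and the summed fat cell signal reached 730 in HSALR samples 1 to 8, against at most 142 in wild type. Cd68 was 1 of 7 tested macrophage and monocyte markers and Pdgfra 1 of 6 fibroblast markers, and the others of these lists did not pass as deposited. Adipoq was the 1 fat cell marker tested. No endothelium or Schwann cell marker passed in either scaling. After quantile normalization Ptprc and Ctss, of the macrophage list, also rose, and the fibre marker Atp2a1 fell by 0.16 (limma adjusted p = 0.0381). Control probe sets for actin and Gapdh gave a log2 3′/5′ ratio, a sign of RNA quality, of -0.11 ± 0.04 in HSALR muscle (SD, n = 10, range -0.17 to -0.035), against -0.062 ± 0.05 in wild type (SD, n = 9, range -0.15 to 0.020). The liver markers Alb and Apoa1, the satellite cell markers Pax7 and Myf5 and the 3 markers of dividing cells with a probe set stayed below the filter on dim probe sets. The part of the other cell types in the results on splicing genes was not tested, and counts without samples 9 and 10 are given beside the counts they bear on.

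A small number of splicing genes rose in HSALR muscle, with changes well under 2-fold. As deposited, 3 of 58 tested genes rose and 0 fell: the SR gene Srsf10, the U2 snRNP gene Snrpa1 and the hnRNP gene Hnrnpdl (limma, Benjamini-Hochberg over all 22519 tested probe sets, false discovery rate 0.05). Over all 11533 genes tested in this way, 3.11% rose and 2.31% fell. Before adjustment, 16 of the 58 had a positive and 1 a negative fold with p under 0.05, beside 13.8% and 7.47% of all genes. After quantile normalization 11 of the 58 rose and 1 fell, against 6.96% and 8.51% of all genes. Srsf12, an SR gene, was the 1 member too dim to test, with signals of at most 14.1 in HSALR and 14.9 in wild-type muscle. In whole muscle, more RNA per cell and more cells of a type that expresses a gene cannot be told apart.

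Direction was more general than the calls. The log2 fold, HSALR minus wild type, was above 0 for 49 of 58 genes as deposited, with a median of 0.16, beside 6967 of 11533 genes (60.4%) and a median of 0.048 over all genes. After quantile normalization it was above 0 for 43 of 58, with a median of 0.099, beside 5609 of 11533 (48.6%) and a median of -0.0070. The folds were also counted by family. The hnRNP genes had 18 of 19 folds above 0 and a median of 0.20, the SR genes 9 of 9 and 0.18, the SF3a and SF3b genes 8 of 9 and 0.16, the Snrp genes 7 of 9 and 0.21, and the Prpf genes 7 of 12 and 0.028, all as deposited. After quantile normalization the medians were 0.14, 0.12, 0.10, 0.16 and -0.044 in the same order, so the Prpf genes were the family whose median changed sign. Without HSALR 9 and 10, as deposited, 40 of 58 folds were above 0, with a median of 0.11, beside 53.7% of all genes. By family these were 14 of 19 hnRNP, 6 of 9 SR, 8 of 9 SF3a and SF3b, 6 of 9 Snrp and 6 of 12 Prpf genes. Quantile normalization without these samples also gave 40 of 58, beside 51.9% of all genes.

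**Figure D1:**
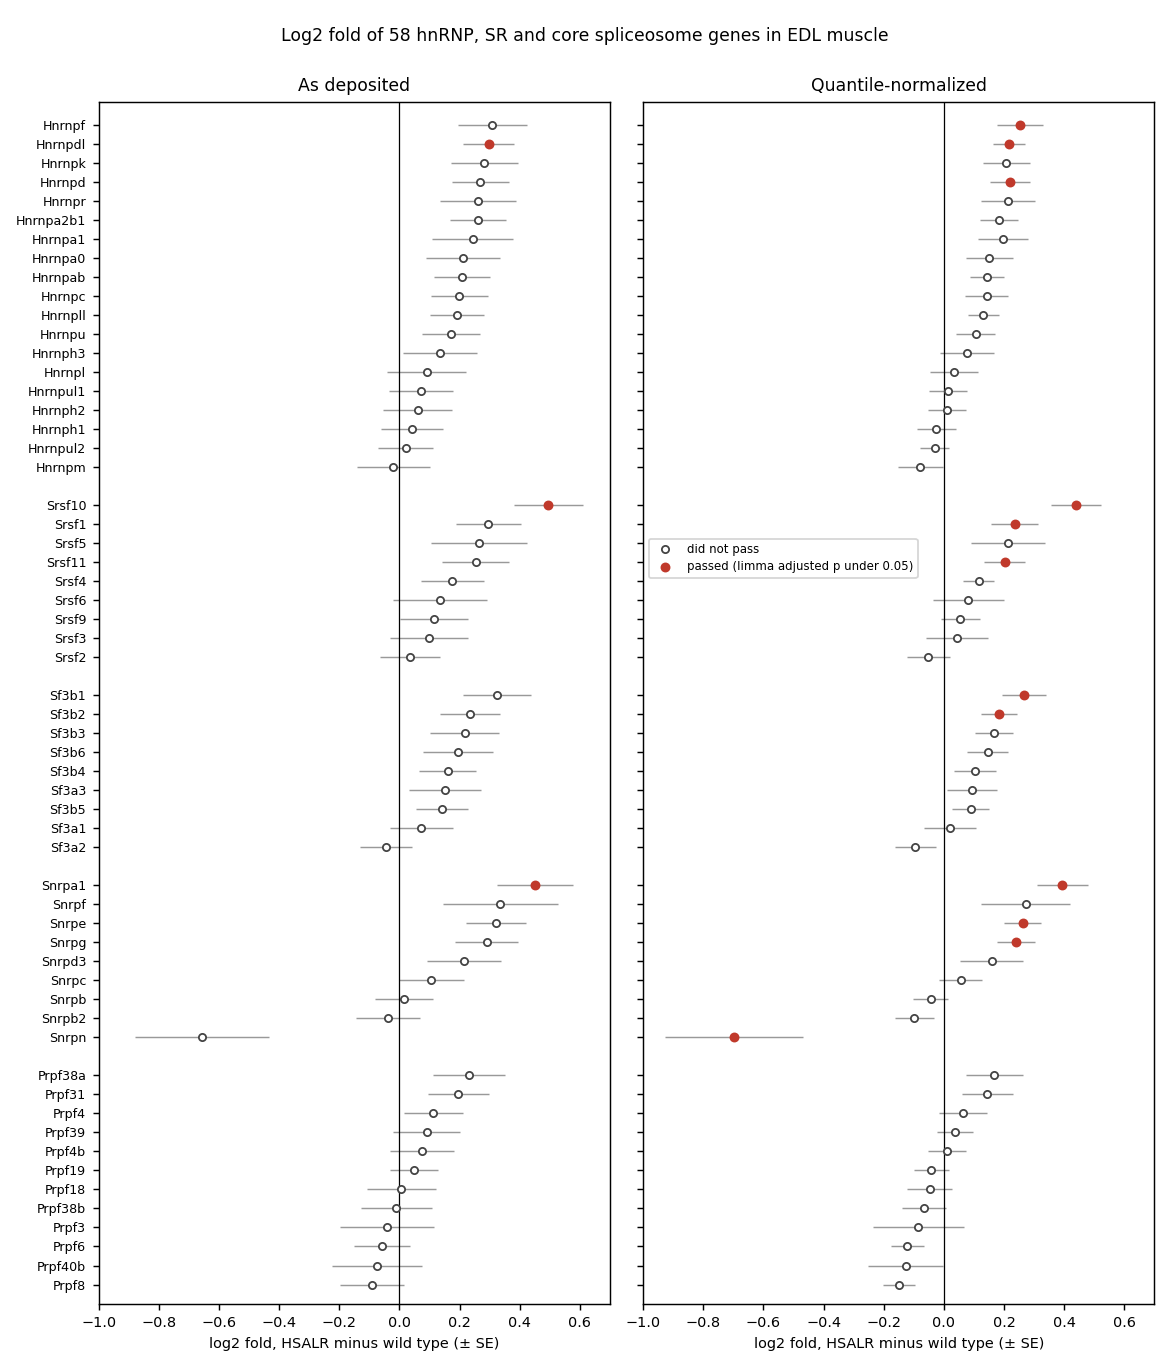
Log2 fold, HSALR minus wild type, of the 58 tested splicing genes (rows, by family) with its standard error, as deposited (left) and after quantile normalization (right). Filled red points passed limma's test, 3 on the left and 12 on the right, and Snrpn is the only filled point below 0.

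The counts moved with single samples. The shares of all genes that passed in the fits without 1 sample are not given here, so these counts cannot be set beside them. HSALR 5 and 7 were the dimmest arrays, with means over all genes of -0.29 and -0.21 against the wild-type mean as deposited. As deposited, leaving out 1 sample at a time gave 1 to 11 genes that rose: 11 without HSALR 5, 5 without HSALR 7, and 1 without any 1 of HSALR 2, 3, 6, 8, 9 and 10 or wild type 2, 3, 4, 5, 7, 8 and 9. Snrpn fell in the fit without HSALR 6. Srsf10 passed in 19 of these 19 fits, Snrpa1 and Hnrnpdl in 4 each. Without HSALR 9 and 10 together, 1 gene rose (Srsf10) and 0 fell, against 2.09% and 1.84% of all genes. After quantile normalization the leave-one-out counts were 7 to 13 higher, with 7 without HSALR 1, 9 or 10 or wild type 2, 3 or 8, and 0 to 2 lower, with 2 without HSALR 9. In that scaling Srsf10, Snrpa1, Hnrnpdl, Snrpe, Snrpg and Sf3b1 passed in 19 of 19 fits. Quantile normalization without HSALR 9 and 10 gave 7 genes that rose and 1 that fell, against 5.71% and 6.05% of all genes, and these were not all the ones above: Prpf31 joined those that rose (log2 fold 0.24, limma adjusted p = 0.0147), and the 1 that fell was Prpf8, not Snrpn. When the fit took this 3′/5′ ratio into account, 6 genes rose and 0 fell as deposited, beside 982 and 265 of all 11533 genes, and 14 rose and 0 fell after quantile normalization, beside 1214 and 1291.

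Srsf10 led the SR genes. It encodes an SR-like protein known to repress splicing when it loses its phosphates, as in heat-shocked or dividing cells. Its signal had a low of 498, a median of 710 and a high of 954 in HSALR muscle, against 391, 501 and 552 in wild type. The groups overlapped only at the bottom of the HSALR range, and 8 of 10 HSALR samples exceeded the highest wild-type sample. Srsf10 rose 1.41-fold (log2 fold 0.49 ± 0.11, SE, limma adjusted p = 0.0112), and by a log2 fold of 0.44 ± 0.08 after quantile normalization (limma adjusted p = 0.0013), where 9 of 10 HSALR samples exceeded it. It is also the gene that passed without HSALR 9 and 10 in both scalings (limma adjusted p = 0.0410 and 0.00384). Of its 3 other probe sets, 1 rose in the quantile-normalized data (0.22 ± 0.07, limma adjusted p = 0.0302), and the other two had log2 folds of 0.15 and -0.042.

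Srsf1, the SR protein first purified as a splicing and alternative splicing factor, had signals of 1723, 2130 and 3015 (lowest, median and highest) in HSALR muscle, against 1504, 1914 and 2029 in wild type. Among the HSALR samples 7 of 10 exceeded the highest wild-type value, and the rest mixed with wild type. As deposited its log2 fold was 0.29 ± 0.11 (limma adjusted p = 0.118), and it rose after quantile normalization (0.24 ± 0.08, limma adjusted p = 0.0461). Srsf11, which encodes a protein of the SR family also called p54, had signals of 1163, 1640 and 2174 in HSALR muscle, against 1221, 1345.5 and 1555 in wild type. Here too the HSALR samples were spread over and beyond the wild-type range, with 2 below it and 6 above it. Srsf11 just passed after quantile normalization (0.20 ± 0.07, limma adjusted p = 0.0491). Neither Srsf1 nor Srsf11 passed in that scaling without HSALR 9 and 10 (limma adjusted p = 0.111 and 0.137).

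The best-known small SR proteins showed no call. Srsf2, also known as SC35 and used as a marker of nuclear speckles, had signals of 2175, 3298 and 3534 in HSALR muscle, against 2526, 2947 and 3663 in wild type. The HSALR values filled the whole wild-type range. The log2 fold was 0.036 ± 0.10 (95% interval -0.17 to 0.24, limma adjusted p = 0.875) and was negative, -0.052, after quantile normalization. Srsf3, the smallest SR protein, had 735, 1002.5 and 1474 in HSALR muscle, against 802, 937 and 1060 in wild type, with HSALR samples on both sides of the wild-type range. Its log2 fold was 0.10 ± 0.13 (limma adjusted p = 0.721). The other 4 tested SR genes, Srsf4, Srsf5, Srsf6 and Srsf9, had log2 folds of 0.12 to 0.27 as deposited, without a call in either scaling.

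Among the Snrp genes, Snrpa1, of the U2 particle, rose in both scalings, and Snrpe and Snrpg, of the Sm ring, after quantile normalization. Snrpb and Snrpn, also of the Sm ring, did not rise. Snrpa1 encodes a protein that sits on the U2 small nuclear RNA. Its signal was 279 at the lowest, 480 at the median and 665 at the highest in HSALR muscle, against 293, 323 and 379 in wild type. The HSALR spread was wider than for Srsf10 or Hnrnpdl and included the lowest sample of all, HSALR 5, yet 8 of 10 HSALR samples were above all wild-type samples. Snrpa1 rose 1.37-fold (log2 fold 0.45 ± 0.13, limma adjusted p = 0.0396), and by 0.39 ± 0.08 after quantile normalization (limma adjusted p = 0.0034). Its 2 other probe sets had log2 folds of 0.33 and 0.22 in that scaling, and the first of them passed (limma adjusted p = 0.0200).

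Snrpe and Snrpg encode the Sm E and Sm G proteins, neighbours in the Sm ring. Snrpe had signals of 2003, 2765 and 3372 in HSALR muscle, against 1805, 2190.1 and 2284.5 in wild type, and Snrpg 943, 1232.5 and 1664 in HSALR muscle, against 858, 1019 and 1111 in wild type. In both genes the lower HSALR samples fell inside the wild-type range and the upper ones passed it. As deposited neither passed, with log2 folds of 0.32 ± 0.10 and 0.29 ± 0.10 (limma adjusted p = 0.0650 and 0.114). Once the arrays had the same distribution, 9 of 10 HSALR samples were above every wild-type sample for Snrpe and 8 of 10 for Snrpg. Both rose in that scaling, by 0.26 ± 0.06 and 0.24 ± 0.06 (limma adjusted p = 0.00839 and 0.0149), and also without HSALR 9 and 10 (limma adjusted p = 0.0150 and 0.0426).

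The bases before the start of these 3 Snrp genes are shown because the genes rose together after quantile normalization. Each run is the 150 bases upstream of the annotated start in RefSeq, build GRCm38.p6, read 5′ to 3′ on the gene's strand, with copies of the motif CCGGAA or its reverse complement TTCCGG in capitals. This motif is a longer form of the site recognised by ETS-family factors and was chosen after the values were seen. The shorter core GGAA was not marked or counted, and it also occurs in the Snrpa1 window. The windows are chr7:66060186-66060335 on the plus strand for Snrpa1, chr1:133610281-133610430 on the minus strand for Snrpe and chr6:86371390-86371539 on the plus strand for Snrpg.
Snrpa1: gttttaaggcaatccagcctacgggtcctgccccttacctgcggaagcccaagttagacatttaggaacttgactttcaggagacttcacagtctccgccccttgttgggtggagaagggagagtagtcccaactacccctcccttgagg
Snrpe: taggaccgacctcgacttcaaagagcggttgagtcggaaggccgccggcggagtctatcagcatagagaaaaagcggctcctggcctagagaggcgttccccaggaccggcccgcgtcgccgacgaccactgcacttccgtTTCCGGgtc
Snrpg: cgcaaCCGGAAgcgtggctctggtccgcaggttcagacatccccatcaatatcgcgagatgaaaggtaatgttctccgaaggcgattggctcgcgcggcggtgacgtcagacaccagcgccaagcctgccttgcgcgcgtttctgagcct

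The Snrpe and Snrpg windows hold 1 copy of the motif and 17 CG pairs each, and the Snrpa1 window holds 0 copies and 3 CG pairs. Over the splicing genes, 53 had windows in the RefSeq table, 72 in all, and 25 of the 72 (34.7%) held the motif on either strand, beside 3032 of 32851 windows of all genes (9.23%). The median window held 14 CG pairs for the splicing genes and 4 over all genes, and the share with the motif was not compared at matched CG content. A match is a description of these letters and no evidence of binding.

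Snrpn was the 1 gene that fell after quantile normalization. It encodes SmN, a copy of the Sm B protein known from brain, and is expressed from the paternal chromosome alone. Its probe set was dim, with signals of 9.21, 41.8 and 98.6 in HSALR muscle, against 39.2, 77.1 and 116 in wild type. Most HSALR samples lay in the lower part of the wild-type range or below it, but HSALR 6 was among the highest, and the SD within HSALR muscle (0.65 on the log2 scale, n = 10) was the largest of the tested splicing genes. The log2 fold was -0.66 ± 0.22 as deposited (limma adjusted p = 0.0896) and -0.70 ± 0.23 after quantile normalization (limma adjusted p = 0.0461). The call was held in 5 of 19 fits that left out 1 sample, and it was lost without HSALR 9 and 10 (limma adjusted p = 0.0587). A further 6 probe sets are annotated to Snurf and Snrpn together and were counted for neither. The 4 of them bright enough to test had log2 folds of -0.63 to 0.20 as deposited, and 1 fell (limma adjusted p = 0.0444).

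Snrpb, which encodes the common Sm B protein, had signals of 1731, 2064 and 3029 in HSALR muscle, against 2006, 2092 and 2585 in wild type. HSALR samples lay on both sides of wild type. Its log2 fold was 0.016 ± 0.10 (95% interval -0.18 to 0.22, limma adjusted p = 0.947), with a negative sign after quantile normalization (-0.043). The 4 Snrp genes not yet named, Snrpf, Snrpd3, Snrpc and Snrpb2, had log2 folds of 0.34, 0.21, 0.11 and -0.038 as deposited and no call.

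**Figure D2:**
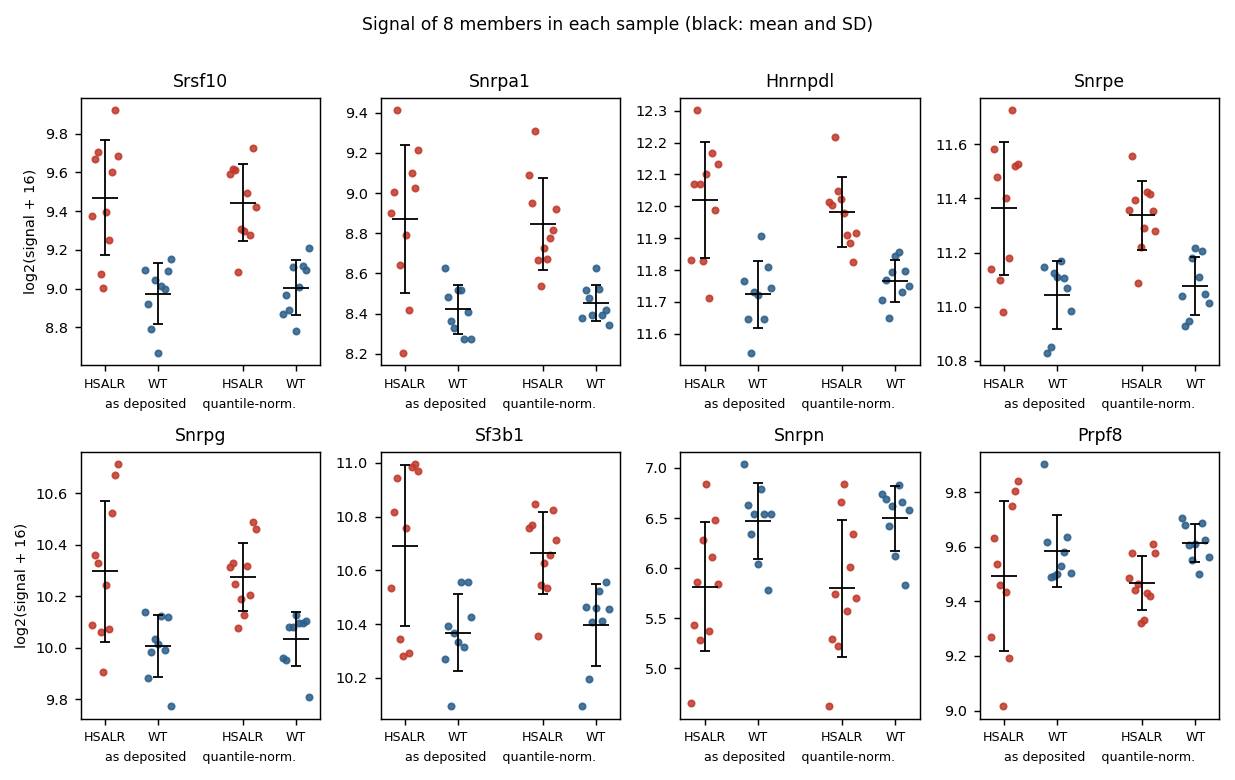
Signal of 8 splicing genes in each sample, as log2(signal + 16), as deposited (left pair in each panel) and after quantile normalization (right pair), with HSALR in red left of wild type (WT) in blue and bars for the mean and SD. For Srsf10, Snrpa1, Hnrnpdl and Snrpe, 9 of 10 HSALR samples stood above all wild-type samples after quantile normalization, whereas for Snrpn most and for Prpf8 all HSALR samples stood at or below the wild-type median.

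The hnRNP genes held the largest number of members and some of the brightest signals. Hnrnpdl, an hnRNP closely related to hnRNP D, had signals of 3336, 4283 and 5033 in HSALR muscle, against 2963, 3379.9 and 3825 in wild type. HSALR samples exceeded every wild-type sample in 7 of 10 cases, and none lay below the wild-type range. Hnrnpdl rose 1.23-fold (log2 fold 0.30 ± 0.09, limma adjusted p = 0.0442), and by 0.22 ± 0.05 after quantile normalization (limma adjusted p = 0.0111). Its 6 other probe sets had folds of 0.029 to 0.17 in that scaling, of the same sign but without a call. The related gene Hnrnpd encodes AUF1, which binds AU-rich elements and is known for its part in messenger RNA decay. Hnrnpd had signals of 901, 1310 and 1430 in HSALR muscle, against 897, 1044 and 1210 in wild type.

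For Hnrnpd the medians of both groups were clearly apart and the lowest samples were not. It passed after quantile normalization (0.22 ± 0.07, limma adjusted p = 0.0317) and not as deposited (0.27 ± 0.10, limma adjusted p = 0.103). Hnrnpf, which binds runs of G in transcripts, had signals of 1538, 2081 and 2793 in HSALR muscle, against 1479, 1637 and 1910 in wild type. Its highest values were those of HSALR 10 and its lowest that of wild type 3, with overlap between. Hnrnpf rose after quantile normalization (0.25 ± 0.08, limma adjusted p = 0.0306), but not without HSALR 9 and 10 (limma adjusted p = 0.0924).

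The brightest probe sets of a pair of abundant hnRNP proteins fell short of the threshold. Hnrnpa2b1, which encodes both hnRNP A2 and B1, had signals of 3905, 5213 and 5959 in HSALR muscle, against 3551, 4166 and 4835 in wild type. HSALR samples exceeded all wild-type samples in 7 of 10 cases. The log2 fold was 0.26 ± 0.09 as deposited and 0.18 ± 0.06 after quantile normalization (limma adjusted p = 0.108 and 0.0512). Hnrnpa1, a splicing repressor that binds exonic and intronic silencers, had signals of 904, 1473 and 1874 in HSALR muscle, against 855, 1183 and 1357 in wild type. The HSALR samples again reached from inside the wild-type range to well above it. Its log2 fold was 0.24 ± 0.13 (limma adjusted p = 0.314), and as the gene has near-identical copies that share some of its probe sets, this value is uncertain. Another probe set that carries its symbol alone rose after quantile normalization (0.30 ± 0.07, limma adjusted p = 0.00678). The 3 probe sets annotated to Hnrnpa1 together with its copies, counted for no gene, also rose in that scaling (log2 folds of 0.26 to 0.54, limma adjusted p = 0.00250 to 0.0266), and 1 of them as deposited (0.60 ± 0.14, limma adjusted p = 0.0156).

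Hnrnph1, a G-run binding relative of Hnrnpf, had signals of 1870.4, 2524 and 3232 in HSALR muscle, against 2219, 2357 and 3100 in wild type. The groups covered each other, with 3 HSALR samples below and 1 above the wild-type range. Its log2 fold was 0.042 ± 0.10 (95% interval -0.17 to 0.25, limma adjusted p = 0.856), and -0.025 after quantile normalization. Hnrnpm, the lowest of the family, had signals of 529, 845 and 1010 in HSALR muscle, against 671, 774 and 1144 in wild type, and a log2 fold of -0.021 ± 0.12 (limma adjusted p = 0.945). Of its HSALR samples 7 of 10 were above the wild-type median and none above the highest wild-type sample. Over the 15 hnRNP genes other than Hnrnpdl, Hnrnpd, Hnrnpf and Hnrnpm, the log2 folds were 0.020 to 0.28 as deposited.

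The SF3a and SF3b genes encode the branch-site complex of the U2 particle. Sf3b1 encodes its largest subunit, which clamps the branch site. Its signals were 1227, 1752 and 2027 in HSALR muscle, against 1079, 1304 and 1491 in wild type. HSALR samples were above all wild-type samples in 6 of 10 cases, and the others mixed with wild type. With quantile-normalized arrays Sf3b1 rose (log2 fold 0.27 ± 0.08, limma adjusted p = 0.0204) but did not pass as deposited (0.32 ± 0.11, limma adjusted p = 0.0984), nor without HSALR 9 and 10 (quantile-normalized, limma adjusted p = 0.0556). Its neighbour in the complex, Sf3b2, had signals of 1357, 1666 and 2223 in HSALR muscle, against 1319, 1382 and 1674 in wild type. Of the 10 HSALR samples 5 exceeded the wild-type range and the others stayed within it. Sf3b2 rose after quantile normalization (0.18 ± 0.06, limma adjusted p = 0.0439) and had a log2 fold of 0.23 ± 0.10 as deposited (limma adjusted p = 0.177). The quantile-normalized call was lost without HSALR 9 and 10 (limma adjusted p = 0.0713) and passed in 5 of 19 fits that left out 1 sample.

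Sf3a2, a subunit of the SF3a part, went the other way without a call. Its signals were 877, 1199 and 1367 in HSALR muscle, against 1122, 1191 and 1428 in wild type, and none of the HSALR samples exceeded the wild-type range. The log2 fold was -0.044 ± 0.09 (limma adjusted p = 0.82) and -0.095 after quantile normalization. The 6 members not yet named in this family, Sf3a1, Sf3a3, Sf3b3, Sf3b4, Sf3b5 and Sf3b6, had log2 folds of 0.072 to 0.22 as deposited.

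The Prpf genes had folds on both sides of 0 and gave no call in either scaling. With array weights 1 rose as deposited and 1 fell after quantile normalization, beside 1250 and 927 of all 11533 genes. Families were not tested against each other. Prpf8, the protein at the centre of the spliceosome's catalytic core, had signals of 501, 708 and 901 in HSALR muscle, against 703, 724 and 943 in wild type. As deposited 5 of 10 HSALR samples lay below every wild-type sample. Its log2 fold was -0.091 ± 0.11 (limma adjusted p = 0.679) as deposited and -0.15 ± 0.05 after quantile normalization (limma adjusted p = 0.0641), where 7 of 10 HSALR samples were below every wild-type sample and 0 above the wild-type median. Without HSALR 9 and 10 it fell in that scaling (-0.18, limma adjusted p = 0.0290). Prpf38a, whose human counterpart joins the spliceosome before activation, was at the other end of the family. It had signals of 104, 152 and 249.5 in HSALR muscle, against 99.9, 132 and 153 in wild type, with 4 of 10 HSALR samples above all of wild type. Its log2 fold was 0.23 ± 0.12 (limma adjusted p = 0.273). The other 10 Prpf genes lay between, at -0.075 to 0.20.

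Different probe sets of 1 gene did not always move together. Of the 41 splicing genes with 2 or more tested probe sets, 3 had probe sets whose folds differed as deposited (Hnrnpul2, Hnrnpd and Hnrnpa2b1, limma diffSplice F test, adjusted p = 0.00726, 0.0120 and 0.0340), beside 1.9% of the 4782 genes with several. After quantile normalization 12 differed, beside 7.59%, and without HSALR 9 and 10, as deposited, 2 differed (Hnrnpul2 and Prpf38a), beside 1.4%. In 12 of the 12 that differed after quantile normalization the probe sets' folds had both signs. These genes were picked because their folds differed. The brightest probe set lay above 0 in 10 of them, and none of the 9 probe sets that fell was the brightest. It is not known here which ends or exons these probe sets read.

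Over all 149 tested probe sets of the splicing genes, 4 rose and 0 fell as deposited, beside 2.86% and 2.2% of all 22519, and 17 rose and 11 fell after quantile normalization, beside 6.47% and 8.37%. Of the 11 that fell, 10 were not the brightest of their gene. The median fold and the counts given above therefore describe the brightest probe sets and not the genes' other probe sets. With all probe sets of a gene averaged, as deposited, 1 of 56 genes rose, 0 fell and the median log2 fold was 0.10, beside 2.72% and 2.11% of all 9097 genes. The 1 gene was Hnrnpul2 (0.35, limma adjusted p = 0.0219), and Srsf10 (0.25), Snrpa1 (0.37) and Hnrnpdl (0.18) lost their calls (limma adjusted p = 0.144, 0.0717 and 0.353).

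Hnrnpul2, an hnRNP U-like protein, had the smallest p for such a split as deposited. Its brightest probe set had signals of 792, 1012 and 1288 in HSALR muscle, against 884, 975.2 and 1180.1 in wild type, with full overlap and a log2 fold of 0.020 ± 0.09. Its other, dimmer probe set had 145, 172 and 245 in HSALR muscle, against 71.1, 109 and 137 in wild type, with no overlap at all. That probe set rose by 0.67 ± 0.12 as deposited and 0.62 ± 0.13 after quantile normalization (limma adjusted p = 0.00116 and 0.00345). Levels are not compared between probe sets, only folds.

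Hnrnpa2b1 and Hnrnpd split in the opposite sense. Once quantile-normalized, 2 other probe sets of Hnrnpa2b1 fell (log2 folds of -0.30 ± 0.06 and -0.41 ± 0.09, limma adjusted p = 0.0027 and 0.0053), while the brightest was at 0.18. The first of these had signals of 1408, 1771 and 2085 in HSALR muscle, against 1760 to 2579 with a median of 2020.4 in wild type, and in both, 8 of 10 HSALR samples were below every wild-type sample after quantile normalization. For Hnrnpd the second probe set had signals of 297, 421 and 569 in HSALR muscle, against 433, 506 and 583 in wild type, and fell by 0.35 after quantile normalization (SE 0.08, limma adjusted p = 0.0043). HSALR samples were below all wild-type samples in 7 of 10 cases in that scaling. Both genes thus had a probe set with a positive and another with a negative fold in the same samples, and as deposited none of these probe sets passed alone.

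Other members had such probe sets as well. A dimmer probe set fell after quantile normalization in Prpf4 (-0.42 ± 0.09), Prpf38a (-0.44 ± 0.10), Snrpd3 (-0.38 ± 0.08), Sf3a3 (-0.36 ± 0.12), Srsf1 (-0.28 ± 0.09) and Sf3b2 (-0.26 ± 0.08), with limma adjusted p of 0.00267 to 0.0460. Prpf6, Hnrnpll and Hnrnpr differed between their probe sets without any 1 of them passing. For 6 splicing genes the brightest probe set has a name ending in _x_at, Srsf1, Sf3b2, Hnrnpf and Hnrnpr among them, and for 7 in _s_at, Snrpe and Snrpg among them. Affymetrix uses these endings for probes that may bind, or are shared with, other transcripts.

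**Figure D3:**
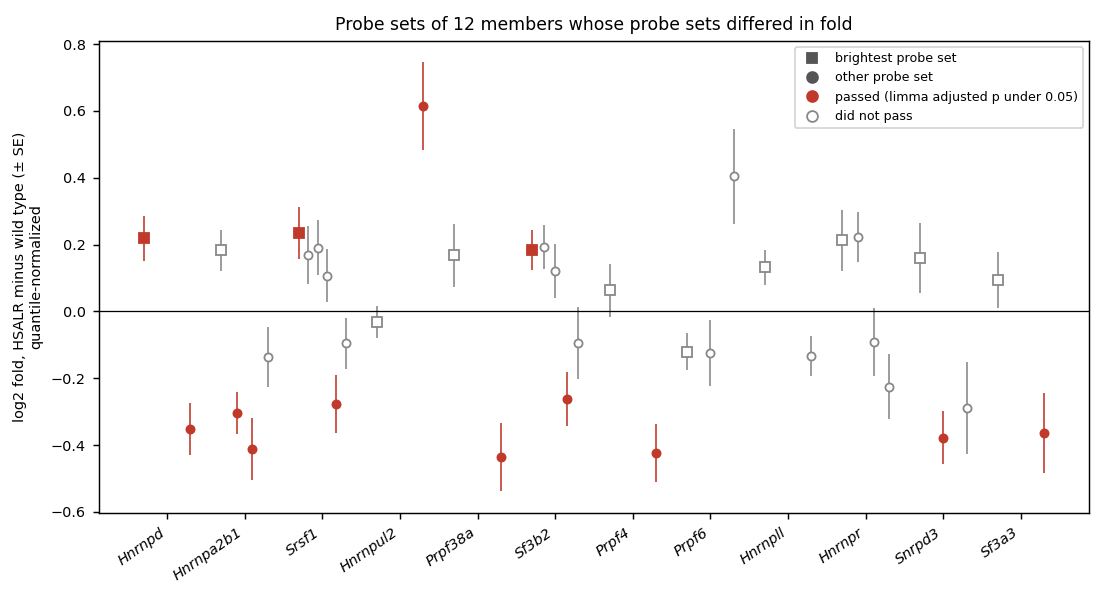
Log2 fold, HSALR minus wild type, after quantile normalization, with its standard error, of each tested probe set of the 12 splicing genes whose probe sets differed. Squares are the brightest probe sets, circles the others and red marks those that passed limma's test, among them the dimmer Hnrnpul2 probe set at 0.62 and 9 probe sets below 0.

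The mean over the 58 genes in each sample was set beside the brightness of its array. As deposited, this mean, set against the wild-type mean, was 0.14 ± 0.23 in HSALR muscle (SD, n = 10, range -0.21 to 0.45), against an SD of 0.10 around 0 in wild type (n = 9, range -0.13 to 0.22). HSALR 5 and 7, the dimmest arrays, were the lowest of all samples, and HSALR 8, 9 and 10 the highest, so HSALR samples lay on both sides of the wild-type range, with 2 below it, 4 above it and 4 inside. After quantile normalization the mean was 0.083 ± 0.04 in HSALR muscle (range -0.0075 to 0.13), against an SD of 0.04 in wild type (range -0.057 to 0.058). Then only HSALR 4, 5 and 7 lay within the wild-type range, and HSALR 5 was no longer the lowest. Without HSALR 9 and 10 the quantile-normalized HSALR mean was 0.075.

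**Figure D4:**
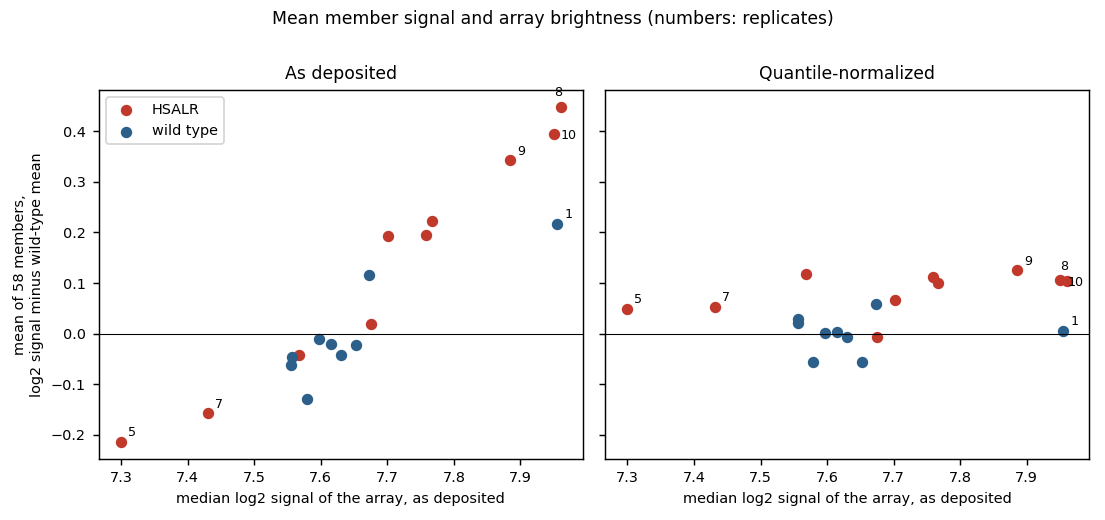
Mean of the 58 tested splicing genes in each sample, as log2 signal minus the wild-type mean, against the median log2 signal of its array as deposited, before (left) and after (right) quantile normalization. On the left the HSALR values follow array brightness between -0.21 and 0.45, and on the right they lie between -0.0075 and 0.13, with wild type between -0.057 and 0.058.

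The spread of the splicing genes between samples of 1 group was set beside that of all genes. After quantile normalization the median SD over these genes was 0.14 in HSALR muscle, beside 0.23 over all genes tested, and 0.11 in wild type, beside 0.17. As deposited the medians were 0.27 beside 0.29 in HSALR muscle and 0.15 beside 0.20 in wild type. The splicing genes were brighter than the genes they were set beside. With only the 11260 brightest probe sets kept, 54 of the 58 tested splicing genes remained, against 6885 of all 11533 genes. The spread was not compared at matched brightness, so whether the smaller SD goes with brightness was not tested. The steadiest members after quantile normalization were Hnrnpll in HSALR muscle (SD 0.067) and Hnrnpab in wild type (0.044), and the most variable were Snrpn (0.68) and Prpf3 (0.42). Individual genes still had high and low samples that crossed the families. HSALR 9 and 10 were the 2 highest HSALR samples for Hnrnpa0 and Srsf6 and low for Sf3a1, Prpf31 and Prpf40b. HSALR 1, 2 and 3 were high for Snrpa1, Srsf10 and Hnrnpr, although for Srsf10 HSALR 9 was the highest.

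**Figure D5:**
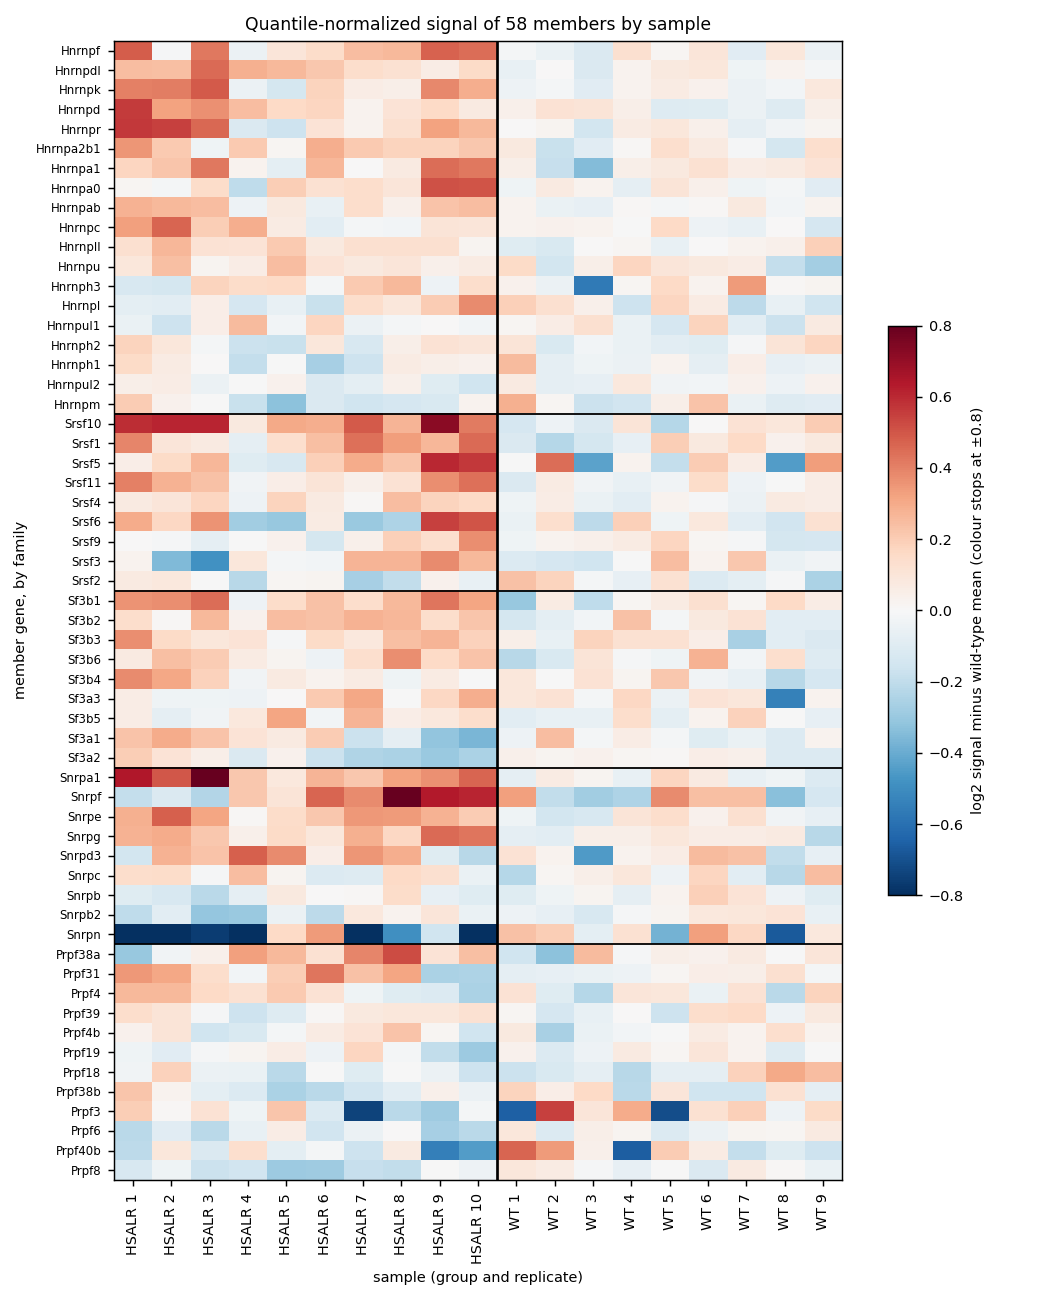
Quantile-normalized log2 signal of the 58 tested splicing genes (rows, by family) in each of the 19 samples (columns, HSALR left of wild type), minus the gene's wild-type mean, with red higher and blue lower and colours that stop at 0.8. The rows of Srsf10 and Snrpa1 are red across the HSALR samples and that of Prpf8 is blue or white, while Snrpn is blue in HSALR 1, 2, 3, 4, 7, 8 and 10.

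Splicing genes with other names were counted as well. Of 95 such genes listed, from the LSM ring, helicases, exon junction proteins, SR kinases and further RNA-binding proteins, 89 had a probe set and 87 were bright enough to test. As deposited 1 rose and 0 fell, where 8 of the 87 had a positive and 0 a negative fold at p under 0.05 before adjustment, beside 13.8% and 7.47% of all genes, and the median log2 fold was 0.069. After quantile normalization 5 rose and 2 fell, with a median of 0.00013, beside the shares of all genes given above. The gene that rose as deposited was Srpk2, a kinase that phosphorylates SR proteins (log2 fold 0.54 ± 0.13, limma adjusted p = 0.0144), with a mean log2 signal of 8.77 in HSALR muscle, against 8.23 in wild type. It passed without HSALR 9 and 10 as well (limma adjusted p = 0.0433).

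After quantile normalization, Ewsr1, an RNA-binding protein of the FET family (0.29 ± 0.09), Lsm3, of the LSM ring on the U6 RNA (0.24 ± 0.07), and Rbm8a, of the exon junction complex (0.21 ± 0.07), also rose. Rbm25, a splicing regulator (-0.25 ± 0.06), and Tia1, which aids recognition of weak splice sites (-0.24 ± 0.08), fell in that scaling. Without HSALR 9 and 10, 3 genes of the list rose and 1 fell after quantile normalization. Lsm3 and Rbm25 passed there (limma adjusted p = 0.0108 and 0.0288), and Ewsr1, Rbm8a and Tia1 did not (limma adjusted p = 0.0760, 0.107 and 0.134). Of the 12 MBNL, CELF and RBFOX genes 7 could be tested, and in both scalings 1 of them fell, Rbfox1, and 0 rose.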

How the data were processed

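The authors deposited a linear signal intensity for each probe set and sample. GCOS 1.4 appears in the submitters' processing notes, while algorithm, scaling and filters were not given in the sources used here. The intensities of 45101 probe sets were used as log2(value + 16), so folds understate changes of dim genes. Leaving out 64 controls and probe sets whose mean was under the median (6.09) left 22519. Of the others, 34945 had 1 symbol in the platform annotation, 932 several and 9160 none, and symbols were updated through the Entrez ID (34741 matched). HSALR was tested against wild type with limma 3.58.1 (R 4.3.3, lmFit with eBayes, 2-sided, Benjamini-Hochberg, false discovery rate 0.05), as deposited and after quantile normalization, and probe sets of a gene with diffSplice. In simulated data the fit as deposited found 32 of 50 changes of 1.5-fold and 45 of 50 of 2-fold. Changes under 1.5-fold, the size of the rises of Srsf10, Snrpa1 and Hnrnpdl, were not simulated.

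The members, lists and tests were chosen with earlier results of these data known. Named were members past the threshold in either scaling, the highest and lowest fold of each family, up to 6 whose probe sets differed as deposited, 10 members whatever their result, and up to 4 other splicing genes per direction and scaling; others are named in passing, after their values were seen. Alternatives were another scaling, pseudocount, filter, probe set rule, prior, array weights, the 3′/5′ ratio of control probe sets as a covariate, a replicate block and samples left out. Protein sequences were not used here.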

Additional observations from a re-analysis of the deposited data

Results flagged for a closer look

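Single samples stood off from the rest of their group for 5 of the 23 members with named results, by the gap to the nearest sample as a share of the group's range (Dixon's 95% value). In 46 groups tested, chance alone gives about 1 in 20. The log2 signals as deposited were 9.91 for Prpf8 (next 9.64), 10.2 for Hnrnpul2 (next 10.02) and 11.6 for Hnrnph1 (next 11.3) in wild type 1, whose array is the brightest of the wild-type arrays. Snrpb was 11.3 in wild type 6 (next 11.1), the highest of wild type, and Prpf38a was 6.86 in wild type 2 (next 7.17), the lowest. None was an HSALR sample.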

How the results depend on the processing

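For 23 named members, 710 values under other settings gave 600 with the same direction and side of the threshold, 40 no longer past it, 39 newly past it and 31 of the other sign. As deposited 3 members rose and 0 fell. The number that rose was 11 with quantile normalization (1 fell), 5 with arrays centred on their median (1 fell), 16 with array weights, 6 with the 3′/5′ covariate, 5 with a trended robust prior, 1 (an SR gene) with no filter or without HSALR 9 and 10, and 1 (Hnrnpul2, not Srsf10) with probe sets averaged. Over all 11533 genes, 567 rose and 645 fell with centring, 1250 and 313 with array weights, and 427 and 298 with the trended robust prior. With no filter 276 of 18193 genes rose and 214 fell. Leaving out 1 sample gave 1 to 11 members that rose, 0 to 1 that fell and medians of 0.13 to 0.20. The shares of all genes in those fits are not given here. After quantile normalization, 11 members rose and 1 fell, beside 803 and 981 of all 11533 genes, and with no filter 539 and 702 of 18193. For the members no filter gave 6 and 0, the 3′/5′ covariate 14 and 0, and leaving out HSALR 9 and 10 gave 7 and 1. Leaving out 1 sample gave 7 to 13 and 0 to 2. Members whose probe sets differed numbered 3 as deposited and 12 after quantile normalization. Quantile normalization moved the median of all genes by -0.055.

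The labels do not say whether the replicate numbers pair the samples, and low correlations cannot exclude it (same-number correlations of -0.24 to 0.13). As deposited, HSALR 1, 6 and 7 were closest to the wild-type sample of their own number, and after quantile normalization HSALR 7 alone. The other HSALR samples were not. With the replicate block, which leaves out HSALR 10, 1 member rose as deposited, and 3 rose and 0 fell after quantile normalization. Over all 11533 genes, 228 rose and 173 fell as deposited, and 501 rose and 606 fell after quantile normalization.

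Values that changed sign were all uncalled. Averaging probe sets gave -0.073 for Hnrnpd, -0.11 for Srsf2, 0.033 for Sf3a2, -0.058 for Prpf38a, -0.10 for Hnrnpa2b1 and -0.11 for Snrpb. Quantile normalization gave -0.052 for Srsf2, -0.031 for Hnrnpul2, -0.025 for Hnrnph1 and -0.043 for Snrpb, and median centring -0.012, -0.028, -0.0061 and -0.032. Leaving out HSALR 9 and 10 gave -0.017 for Srsf2, -0.0058 for Hnrnpul2, -0.018 for Hnrnph1, -0.021 for Srsf3 and -0.022 for Snrpb. Hnrnpm was 0.061 with the covariate and 0.072 with array weights, Sf3a2 0.024 with array weights, and Snrpb -0.0038 with the replicate block. Leaving out 1 sample gave -0.058 to 0.043 for Hnrnpm, -0.068 to 0.0023 for Sf3a2, -0.022 to 0.055 for Hnrnpul2 and -0.038 to 0.051 for Snrpb. The causes were not tested.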
